A study of Mus musculus with 13 samples.

Results

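Genes of the ATF4-CHOP branch of the endoplasmic reticulum (ER) stress response were followed in ribosome footprint libraries of mouse fibroblasts. They were Atf4, Ddit3 (which encodes CHOP), Ppp1r15a (GADD34), Trib3, Chac1, Nupr1 and Vldlr, and were taken by symbol, as 7 of the 22406 genes in the tables. PERK WT mouse embryonic fibroblasts (MEFs) and PERK −/− MEFs were each measured untreated (control) and after 1, 2, 5 and 8 h of thapsigargin (Tg), an inhibitor of the ER calcium pump that causes ER stress. NIH3T3 cells, an established line of mouse fibroblasts with WT PERK, were measured untreated and after 2 and 7 h of Tg, which the methods give at a lower concentration than in MEFs. There was 1 library for each of the 13 conditions. The spread between replicates is therefore unknown, and no test between conditions was made.

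PERK is a kinase in the ER membrane that senses unfolded proteins and phosphorylates the translation initiation factor eIF2α. This lowers initiation on most mRNAs but raises translation of a few, of which Atf4 is the best known, through upstream reading frames in their leaders. ATF4 is a transcription factor that induces CHOP, and both act on genes of amino acid supply, redox balance and cell death, among them GADD34, which brings a phosphatase back to eIF2α.

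TPM values, in which counts are divided by gene length and scaled to a fixed sum per library, are shares of a library. A change is therefore relative to all other genes, and a footprint level combines the amount of mRNA with its translation. The study's polysome profiles showed a marked drop in total translation in WT MEFs in Tg, and in PERK −/− MEFs only a slight one at 8 h. Gaps between the genotypes in Tg thus compare shares, not absolute synthesis. In these bulk samples, fewer cells with a transcript and less of it per cell cannot be told apart. Fold changes were taken between TPM values after values under 4 TPM had been raised to 4, the floor of the study, unless stated otherwise. They cover genes whose mean TPM was 2 or more, which were 10432 genes and all 7 members in MEFs, and 10117 genes and 6 members, without Vldlr, in NIH3T3 cells. The interval beside a log2 change is the exact 95% (Clopper-Pearson) interval of the counts per library total, without a floor, and covers counting error only. Tg libraries of one cell line share their control library. The MEF and NIH3T3 libraries came in separate tables, and levels were not compared between them.

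The MEF libraries held between 2525029 (WT, 2 h) and 14799515 (PERK −/−, 2 h) expected counts and the NIH3T3 libraries between 2569965 (2 h) and 11121006 (control). Eif2ak3, the gene of PERK, was still covered in all libraries labelled PERK −/−, with 7.64 to 19.1 CPM (counts scaled to the library total) against 14.4 to 33.3 in WT MEFs. Matched by time, Eif2ak3 counts per library total in PERK −/− MEFs were 0.396 to 0.624 of those in WT MEFs. All counting intervals of the log2 ratio lay below 0. The TPM values of Eif2ak3 overlapped, at 5.21 to 17.2 against 6.03 to 15.7. The gene total does not by itself check the labels, since footprints remained. Which exons the deletion removed is not given in the sources used here. Of 8 fibroblast markers, 7 had at least 2 TPM in every library. Lum, the remaining one, was under 2 TPM in every WT MEF and NIH3T3 library. The summed TPM of 3 blood and macrophage markers was 1.83 to 4.49 in PERK −/− MEFs and 0.55 to 2.04 in WT MEFs, and that of 4 epithelial markers was 5.16 to 8.87 and 6.13 to 17.7. In NIH3T3 cells these sums were up to 0.93 and 15.8 TPM, and 2 endothelial markers summed to 0 to 0.32 TPM in MEFs and 1.64 to 3.07 in NIH3T3 cells. Their part in the results was not tested.

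Leaders and promoters of the 7 genes are shown first, as the parts of the genes where translation and transcription start. In GRCm38.p6 the genes lay at chr15:80255184-80257545 (Atf4), chr10:127290793-127296291 (Ddit3), chr7:45522917-45526268 (Ppp1r15a), chr2:152337425-152344060 (Trib3), chr2:119351242-119354326 (Chac1), chr7:126623246-126625470 (Nupr1) and chr19:27216480-27254231 (Vldlr). In the GENCODE annotation of GRCm38, the assembly also named mm10, the leader of Atf4 held 3 upstream AUG codons, that of Ppp1r15a 3, that of Ddit3 2 and that of Nupr1 1. The leaders of Trib3, Chac1 and Vldlr held none. An upstream AUG in 4 of 7 leaders is near the share over all genes. Of 9990 expressed genes with an annotated leader, 48.7% held an upstream AUG and 15.1% had an upstream reading frame that overlapped the coding sequence, as Atf4 did. That frame of Atf4 shared 83 nt with the coding sequence, of which 53 nt, or 5.35% of the counted 990 nt, lay within the part of the coding sequence counted here. Footprints on this stretch may come from either frame and could not be separated in the gene totals.

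RefSeq promoters (GRCm38.p6, 250 bases before to 50 after the start site) were found for 7 of 7 genes, with a second start site for Vldlr. They were searched on both strands for the C/EBP-ATF composite element TGATGNAA, to which ATF4 and CHOP bind with C/EBP partners, for the cAMP response element TGACGTCA, and for the ER stress response element. The composite letters occurred in 4 of the 8 promoters, those of Chac1, Trib3, Nupr1 and the second start site of Vldlr, and in 3.97% of 32851 mouse promoters. The cAMP response element occurred in that of Ppp1r15a and in 1.79% of all promoters. The ER stress response element occurred in none of the 8 and in 0.119% of all, and the Atf4 and Ddit3 windows held none of the 3 motifs. A match of letters is not evidence of binding. The matched windows are printed 5′ to 3′ on the strand of the gene, with the motif in capitals. The 4 composite elements read on the opposite strand, so that the capitals show their reverse complement. In Trib3 the element started 14 bases after the start site, and in Chac1, Nupr1 and Vldlr it began 193, 110 and 200 bases before it.
Chac1, chr2:119351023-119351082, plus strand: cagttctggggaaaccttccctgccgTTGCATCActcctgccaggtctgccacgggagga
Nupr1, chr7:126625547-126625606, minus strand: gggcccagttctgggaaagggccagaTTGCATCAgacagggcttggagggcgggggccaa
Vldlr, chr19:27216794-27216853, plus strand: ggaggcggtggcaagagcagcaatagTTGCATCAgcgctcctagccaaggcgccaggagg
Trib3, chr2:152344028-152344057, minus strand: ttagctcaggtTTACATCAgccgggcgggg
Ppp1r15a, chr7:45526269-45526306, minus strand: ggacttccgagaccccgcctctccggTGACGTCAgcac
The Vldlr window lay inside the gene as placed from its first start site. The letter at the N of the composite element differed, so that Chac1, Nupr1 and Vldlr shared 1 form and Trib3 had another.

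Footprints on the whole group rose steeply in WT MEFs and in NIH3T3 cells and did not in PERK −/− MEFs. The summed TPM of the 7 genes in WT MEFs rose from 101 in the control to 1000, 1612, 1901 and 1968 after 1, 2, 5 and 8 h. In PERK −/− MEFs it was 230 in the control and 127, 142, 145.5 and 223 after 1, 2, 5 and 8 h. It thus lay above the WT sum before Tg and below it at each time in Tg. Nupr1 alone held 63.7% of the PERK −/− control sum, with 147 TPM against 30.2 in the WT control. At 8 h Nupr1 was below its PERK −/− control, while each other member was above its own in TPM. The counting intervals of Ppp1r15a, Trib3 and Vldlr included 0 there. The sum in NIH3T3 cells was 624 without Tg and 3768 and 2048 after 2 and 7 h of it.

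At least 2-fold higher than control in WT MEFs were 5 of the 7 genes at 1 h, where 4.33% of all expressed genes were. The count was 6 at 2 h (5.66% of all), 7 at 5 h (5.86%) and 7 at 8 h (6.45%). Nupr1, at 1.97-fold, and Vldlr were the genes below the threshold at 1 h, and Vldlr was the gene below it at 2 h. Vldlr passed at 2 h with a lower floor, a pseudocount or counts scaled in other ways, where its log2 change was 1.71 to 2.43 in place of 0.53 and the count was 7. No member was at least 2-fold lower in WT MEFs, where 2.29%, 4.01%, 3.55% and 3.87% of all expressed genes were after 1, 2, 5 and 8 h. The median log2 change of the members went from 2.77 at 1 h to 4.07 at 8 h, beside medians of 0 to 0.01 over all expressed genes. At 8 h and with the floor, 6 of the 7 genes were among the 16 with the largest rise of 10432, with Trib3 first and Ddit3 second, and Vldlr was at place 193.

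In PERK −/− MEFs no member was at least 2-fold higher at 1 h (0.719% of all expressed genes) or 5 h (3.26%). Only Ddit3 was at 2 h (0.623%), and only Chac1 at 8 h (3.28%). In the other direction, Trib3 and Nupr1 were at least 2-fold lower than control at 1 h (3.38% of all), Trib3 at 2 h (5.78%), and Trib3, Chac1 and Nupr1 at 5 h (4.77%), while no member was at 8 h (2.73%). The call of Nupr1 at 1 h was lost with TMM or DESeq2 factors, where its log2 change was −0.91 and −0.93 in place of −1.04. The median log2 change of the members was −0.34, −0.28, 0 and 0.42 after 1, 2, 5 and 8 h. In NIH3T3 cells 6 of 6 members were at least 2-fold higher at 2 h (5.76% of all) and 5 of 6 at 7 h (7.01%), the exception being Nupr1, which passed with DESeq2 size factors (log2 1.03) and in thinned counts.

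**Figure D1:**
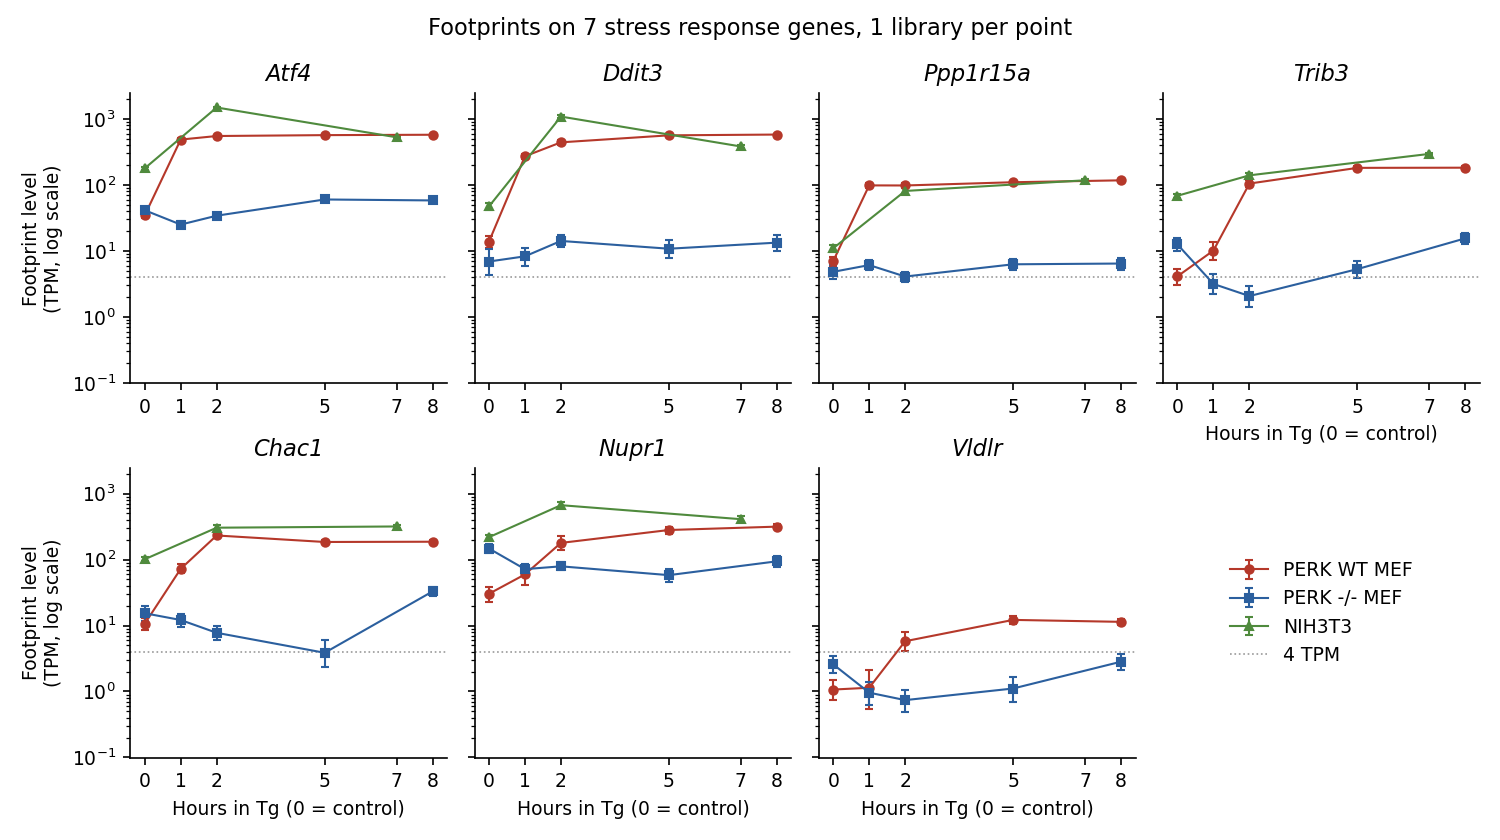
Footprint level of each gene in TPM, on a log axis, against hours in Tg (0 is the control), with 1 library per point and bars for the 95% counting interval. In PERK WT MEFs (red circles) all 7 genes ended above their control, those of PERK −/− MEFs (blue squares) stayed at or below 60.2 TPM except Nupr1, and Vldlr of NIH3T3 cells (green triangles) had 0 counts and is not drawn. The dotted line is the floor of 4 TPM, and lines join libraries of one cell line.

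Atf4, the transcription factor at the head of the group, had 34.5 TPM in the WT control and 487, 551, 569 and 576 after 1, 2, 5 and 8 h. The WT Tg libraries were all at least 14.1-fold above the control, and the last 3 lay close together. The change at 1 h was 3.82 on the log2 scale of TPM (interval of the counts 3.68 to 3.99), which was 94.0% of the change at 8 h. From 5 to 8 h the interval of the change included 0 (−0.04 to 0.08).

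In PERK −/− MEFs Atf4 had 41.4 TPM in the control and 25.1, 34.2, 60.2 and 58.2 after 1, 2, 5 and 8 h. It was thus lower than control first, by 1.65-fold at 1 h (log2 interval −0.94 to −0.45), and higher later, by 1.45-fold at 5 h (0.37 to 0.79) and 1.41-fold at 8 h (0.27 to 0.70). In the controls the genotypes differed little, with PERK −/− MEFs above WT by 0.26 on the log2 scale. At 1 h they were 19.4-fold apart and at 8 h 9.89-fold, with PERK −/− MEFs lower.

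Atf4 in NIH3T3 cells had 178 TPM untreated and 1491 and 527 TPM after 2 and 7 h. The rise was 8.36-fold at 2 h and 2.96-fold at 7 h, so that the later library lay 2.83-fold below the earlier one. In WT MEFs no such fall was seen between 2 and 8 h, where the level changed by 1.04-fold (log2 interval −0.02 to 0.14).

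Ddit3 encodes CHOP, the transcription factor that follows ATF4 and is tied to cell death under lasting stress. It had 13.8 TPM in the WT control and 272, 442, 564 and 580 after 1, 2, 5 and 8 h. It rose by 1.63-fold from 1 to 2 h (log2 interval 0.59 to 0.95), beside 1.13-fold for Atf4 (0.07 to 0.27). From 2 to 5 h it rose by 1.28-fold (0.20 to 0.49), where the interval of Atf4 included 0 (−0.05 to 0.13). At 8 h it was 42.0-fold above control (5.05 to 5.70) and had the highest TPM of the 7 genes, just above Atf4.

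In PERK −/− MEFs Ddit3 had 6.91 TPM in the control and 8.28, 14.2, 10.8 and 13.4 after 1, 2, 5 and 8 h, from 21 to 105 counts. It was the one member above its PERK −/− control in all 4 Tg libraries, with the largest change, 2.05-fold, at 2 h (log2 interval 0.50 to 1.94). The intervals at 1 h (−0.36 to 1.26) and 5 h (−0.04 to 1.58) included 0, and that at 8 h lay above it (0.31 to 1.89). The 2-fold call at 2 h was lost with a pseudocount of 1 TPM or with counts scaled by other factors, where the log2 change was 0.66 to 0.94. The scaled counts had the same floor, which lies above the control value. Without a floor, counts per library total gave a log2 change of 1.19. The control itself was 1.996-fold below that of WT (−1.90 to −0.43), and the PERK −/− levels in Tg, up to 14.2 TPM, were near the untreated WT level of 13.8. At 5 h the genotypes were 52.3-fold apart, the widest gap of any member at any time.

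In NIH3T3 cells Ddit3 had 47.2 TPM untreated and 1086 and 383 TPM after 2 and 7 h. It rose 23.0-fold at 2 h, second of the 10117 genes, and was 8.11-fold above control at 7 h. The fall from 2 to 7 h was 2.84-fold, beside 2.83-fold for Atf4.

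Ppp1r15a encodes GADD34, the subunit that directs a phosphatase to eIF2α and so reverses the signal of PERK. It had 7.01 TPM in the WT control and 98.4, 98.1, 110 and 117 after 1, 2, 5 and 8 h. Like Atf4 it had made 93.7% of its 8 h change by 1 h, at 14.0-fold above control (log2 interval 3.58 to 4.07). The later libraries added 1.19-fold between 1 and 8 h (0.12 to 0.36).

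In PERK −/− MEFs Ppp1r15a had 4.82 TPM in the control and 6.10, 4.09, 6.27 and 6.44 after 1, 2, 5 and 8 h. The 4 changes were between −0.24 and 0.42 on the log2 scale, and all 4 counting intervals included 0. It was the member with the narrowest range over the PERK −/− libraries, 1.57-fold between the lowest and the highest. In NIH3T3 cells it had 10.96 TPM untreated and 81.0 and 118 TPM after 2 and 7 h, and it went on rising from 2 to 7 h by 1.45-fold (0.27 to 0.57) while Atf4 and Ddit3 fell.

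**Figure D2:**
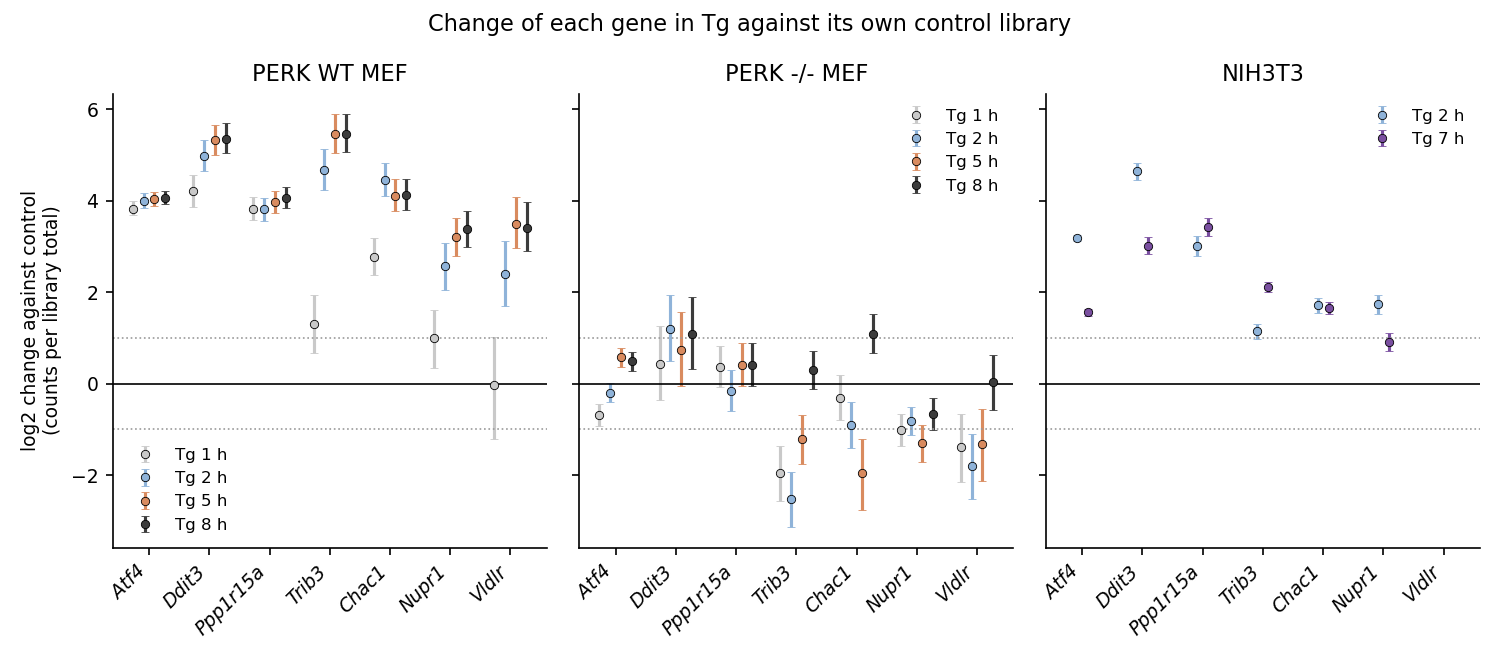
log2 change of counts per library total in each Tg library against its own control, with 95% counting intervals as bars, for PERK WT MEFs, PERK −/− MEFs and NIH3T3 cells. Dotted lines mark 2-fold. In PERK WT MEFs Atf4 and Ppp1r15a were near their final change at 1 h, while Ddit3 was at 4.21 at 1 h and 5.36 at 8 h. In PERK −/− MEFs Trib3, Chac1, Nupr1 and Vldlr lay below 0 at 2 and 5 h.

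Trib3 encodes a pseudokinase that is induced by ATF4 and CHOP and acts back on both. It had 4.12 TPM in the WT control and 10.1, 105, 181 and 182.5 after 1, 2, 5 and 8 h. It was among the late genes, with 23.7% of its 8 h log2 change present at 1 h and 85.4% at 2 h. The step from 1 to 2 h was 10.4-fold (log2 interval 2.88 to 3.89), from 39 to 281 counts. At 8 h it was 44.3-fold above control (5.07 to 5.90), the largest rise of any expressed gene with the floor. The floor limits the rise of genes with lower controls, such as Adm2, which went from 0.85 to 38.4 TPM.

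In PERK −/− MEFs Trib3 had 12.5 TPM in the control (89 counts) and 3.16, 2.07, 5.30 and 15.5 after 1, 2, 5 and 8 h (from 34, 34, 46 and 121 counts). The control was 3.04-fold above that of WT. Tg was followed by a fall, by 1.65 on the floored log2 scale at 1 and 2 h and by 2.52 in counts per library total at 2 h (interval −3.14 to −1.94). At 8 h the level was back above control by 1.24-fold, with an interval that included 0 (−0.11 to 0.71). In NIH3T3 cells Trib3 had 68.5 TPM untreated and 140 and 295 TPM after 2 and 7 h, a rise of 2.04-fold and then 4.31-fold, so here too it was later than Atf4.

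Chac1 encodes an enzyme that breaks down glutathione. It had 10.6 TPM in the WT control and 72.2, 231, 184 and 186 after 1, 2, 5 and 8 h. It was the one member with its highest WT level at 2 h, and was 1.24-fold lower at 8 h than at 2 h (log2 interval −0.49 to −0.15). At 1 h it was 6.80-fold above control, between the early genes and Trib3, with 67.0% of the 8 h log2 change.

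Chac1 in PERK −/− MEFs had 15.3 TPM in the control and 12.1, 7.75, 3.86 and 32.9 after 1, 2, 5 and 8 h. It fell with each time up to 5 h, where it was 3.83-fold below control, and then rose 8.22-fold to 8 h (log2 interval 2.37 to 3.80), from 20 to 153 counts. Only 7 of the 10432 genes rose more over that step. At 8 h Chac1 was 2.14-fold above control (0.66 to 1.53) and 5.66-fold below WT, against 46.1-fold below WT at 5 h. In NIH3T3 cells it had 101 TPM untreated and 303 and 317 TPM after 2 and 7 h, and the last 2 differed by no more than counting error (−0.20 to 0.09).

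Nupr1 encodes a small chromatin-associated protein induced by many stresses. Its counted coding sequence was 183 nt, against a median of 1299 nt over expressed genes, so its TPM values rest on few counts. It had 30.2 TPM in the WT control (60 counts) and 59.5, 178.5, 280 and 315 after 1, 2, 5 and 8 h (from 36, 75, 260 and 583 counts). The rise was gradual, with 28.9% of the 8 h log2 change at 1 h and 75.8% at 2 h, and reached 10.4-fold at 8 h (log2 interval 2.99 to 3.79).

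In PERK −/− MEFs Nupr1 had 147 TPM in the control and 71.5, 78.8, 58.0 and 93.9 after 1, 2, 5 and 8 h. It was the member with the highest untreated level in these cells, 4.86-fold above the WT control (log2 interval 1.84 to 2.73), and the one that was below control in all 4 Tg libraries, by 1.56-fold to 2.53-fold. All 4 counting intervals lay below 0. At 1 h the genotypes did not differ beyond counting error (−0.27 to 0.86), with WT at 1.97 times and PERK −/− MEFs at 0.487 times their own control, and at 8 h PERK −/− MEFs were 3.35-fold lower. In NIH3T3 cells Nupr1 had 218 TPM untreated and 666 and 408 TPM after 2 and 7 h, and was 3.06-fold and 1.87-fold above control.

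Vldlr encodes the very low density lipoprotein receptor, which takes up triglyceride-rich particles. It was the weakest member, with 1.07 TPM in the WT control (34 counts) and 1.14, 5.78, 12.2 and 11.4 after 1, 2, 5 and 8 h (from 10, 38, 181 and 339 counts). No rise was detectable at 1 h (log2 interval −1.22 to 1.01), and at 2 h the interval was above 0 (1.70 to 3.11). Since the control lay under the floor, the change at 8 h was 2.84-fold with the floor and 10.6-fold without it. In PERK −/− MEFs it had 2.58 TPM in the control and 0.96, 0.74, 1.11 and 2.83 after 1, 2, 5 and 8 h, all under the floor. Without the floor it was lower than control at 1, 2 and 5 h, with the lowest value at 2 h (−2.52 to −1.10).

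Vldlr had 0 counts in all 3 NIH3T3 libraries, which is under a limit of 3 counts, or 1.17 CPM in the smallest of them. It was 1 of 405 genes, 3.88% of those expressed in MEFs, without a count in any NIH3T3 library. A response of Vldlr in these cells was not detectable at this depth.

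The 7 genes therefore reached their WT levels at different times. By 1 h, Atf4, Ppp1r15a and Ddit3 had made 94.0%, 93.7% and 79.8% of the log2 change seen at 8 h, and each was among the 4 genes with the largest rise. Chac1 followed with 67.0%, and Nupr1, Trib3 and Vldlr with 28.9%, 23.7% and 2.68%, the last without the floor. The place of Ddit3 depended on the log2 scale. Of the gain in TPM seen at 8 h, Atf4 and Ppp1r15a had made 83.5% and 82.8% by 1 h. On that scale Ddit3, at 45.6%, lay nearer to Chac1, at 35.1%, and Nupr1, Trib3 and Vldlr were at 10.3%, 3.37% and 0.68%. The composite element was found in the promoter windows of Chac1, Nupr1, Trib3 and the second start site of Vldlr. It occurred in 3.97% of all promoters. These 4 genes had the smaller percentages at 1 h, but Chac1 (67.0%) lay nearer to Ddit3 (79.8%) than to Nupr1 (28.9%). Sequence outside the windows was not searched, and a link between the element and the timing was not tested. Between 5 and 8 h, 6 of the 7 intervals included 0, and that of Ppp1r15a was 0.002 to 0.20.

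**Figure D3:**
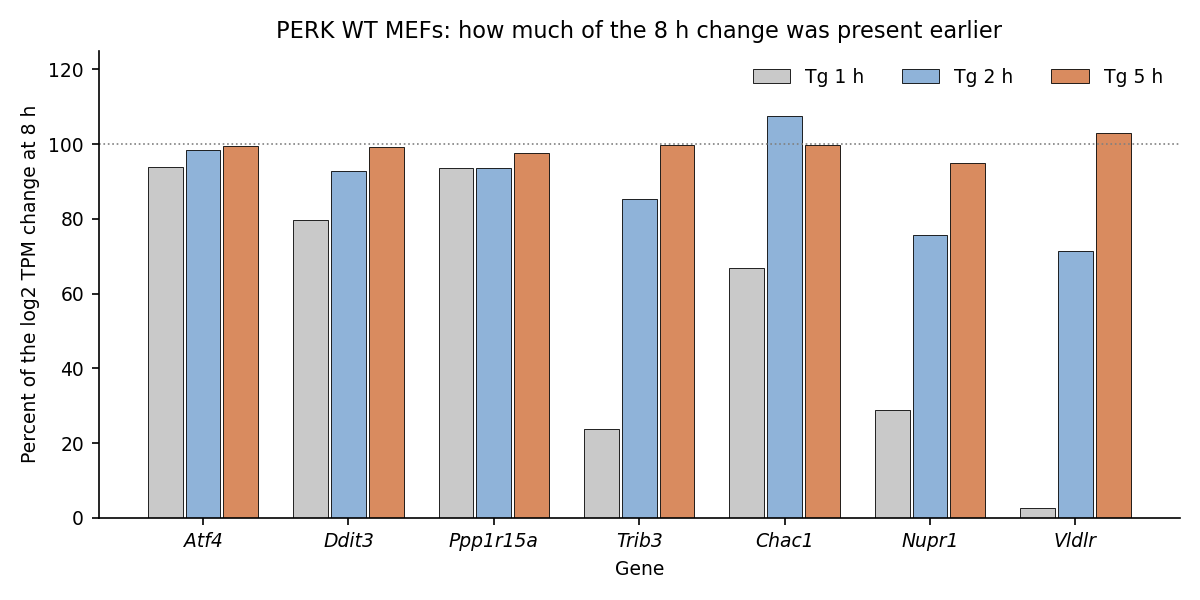
Bars show, for PERK WT MEFs, the log2 TPM change against control (without a floor) at 1, 2 and 5 h as a percent of that at 8 h, which is the dotted line at 100. Atf4, Ppp1r15a and Ddit3 were at 79.8% or more at 1 h, Trib3, Nupr1 and Vldlr were at 28.9% or less, and Chac1 was above 100 at 2 h.

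The order of the genes by TPM changed as well. In the WT control Atf4 and Nupr1 led, with 34.1% and 29.8% of the summed TPM of the group. At 1 h Atf4 held 48.7% and Ddit3 27.2%, and at 8 h Ddit3 held 29.5% and Atf4 29.3%. These were within counting error of each other, since the 95% intervals of their TPM (560 to 600 and 562 to 590) overlapped. In PERK −/− MEFs Nupr1 held 63.7% of the sum in the control and led in all libraries but that of 5 h, where Atf4 did. In NIH3T3 cells Nupr1 led in the control with 34.9%, and Atf4 led at 2 h with 39.6% and at 7 h with 25.7%.

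Between genotypes, no member was at least 2-fold lower in PERK −/− than in WT MEFs in the controls, where 1.97% of all expressed genes were. Ddit3 fell little short of the threshold, at 1.996-fold. In counts per library total without a floor it passed, with a log2 difference of −1.14 (interval −1.90 to −0.43). Trib3 and Nupr1 were at least 2-fold higher in the PERK −/− control, as were 6.04% of all. In Tg the count of members at least 2-fold lower was 5 at 1 h (5.34% of all) and 6 at 2 h (9.96%, and 7 members with the lower floor, pseudocount or other scalings, which added Vldlr), and it was 7 both at 5 h (7.48%) and at 8 h (5.62%). The median log2 difference of the members was −2.57, −4.58, −4.13 and −3.31 after 1, 2, 5 and 8 h. From 2 to 8 h the log2 difference went from −4.90 to −2.50 in Chac1 and from −4.71 to −3.56 in Trib3, whose PERK −/− levels had risen again, and it also narrowed in Atf4 and Ppp1r15a. It widened in Ddit3, from −4.96 to −5.44, and in Nupr1, from −1.18 to −1.75. In Vldlr the direction depended on the floor, since the gap went from −0.53 to −1.51 with it and narrowed from 7.81-fold to 4.01-fold without it. The 3 genes that differed most at 8 h were Ddit3 (43.4-fold), Ppp1r15a (18.2-fold) and Trib3 (11.8-fold).

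Other genes of the pathway were read from a list of 32, grouped by role. At least 2-fold higher than control in WT MEFs were 5, 19, 23 and 23 of them after 1, 2, 5 and 8 h (4.33%, 5.66%, 5.86% and 6.45% of all expressed genes). Lower was 1, Cebpg after 1 h (2.29% of all). The medians of their log2 change were 0.09, 1.27, 1.86 and 1.86. The 5 genes up at 1 h were Atf3, Atf5, Sesn2, Herpud1 and Bbc3. Of these, Bbc3 had 17 counts at 1 h. It passed in TPM, from 5.15 to 13.75, but stayed under 2-fold in CPM, from 3.01 to 4.71. None of the 13 genes of amino acid and redox supply was up at 1 h, and 10, 11 and 12 of them were at 2, 5 and 8 h.

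Among the partner transcription factors at 8 h, Atf5 rose from 2.74 to 117 TPM (log2 4.87) and Atf3 from 7.62 to 53.8 (2.82), while Cebpg went from 32.5 to 46.4 (0.51). In the amino acid group Slc7a11, the cystine transporter, rose from 2.51 to 36.4 TPM (3.18) and Psph, an enzyme of serine synthesis, from 50.6 to 380 (2.91), and Mthfd2 had the smallest change (0.61). Among other stress targets Herpud1, a factor in the clearance of ER proteins, rose from 25.6 to 535 TPM (4.38) and Sesn2 from 5.99 to 44.5 (2.89), and Eif4ebp1 had the smallest change (2.19) of those with counts in the control. Fgf21 had 0 counts in the control and 48 counts, or 7.29 TPM, at 8 h, so that its change of 0.87 over the floor could not be ranked with the others. Of 4 genes named as outputs of CHOP only Bbc3 passed 2-fold at 8 h, from 5.15 to 13.7 TPM, while Ero1l changed by 0.68 and Tnfrsf10b by −0.04. Upstream, Eif2ak3 rose by 1.38 on the TPM scale and by 0.62 in counts per library total, Ppp1r15b fell by 0.74 and Ppp1ca changed by −0.07.

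In PERK −/− MEFs 0, 1, 2 and 4 of the 32 genes were at least 2-fold higher at the 4 times (0.719%, 0.623%, 3.26% and 3.28% of all expressed genes). Lower were 3, 5, 3 and 0 of them (3.38%, 5.78%, 4.77% and 2.73% of all). Those up at 8 h, when Chac1 was also up, were Gpt2, Slc7a11, Slc3a2 and Herpud1. In NIH3T3 cells 31 of the 32 passed the mean TPM minimum. Only Atf5 and Herpud1 were up at 2 h, near the share of 5.76% over all expressed genes, when all 6 measured members were up. The count was 8 at 7 h (7.01% of all). None of the 13 amino acid and redox genes was up in NIH3T3 cells at 2 h and 2 were at 7 h, Slc7a11 and Slc3a2.

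**Figure D4:**
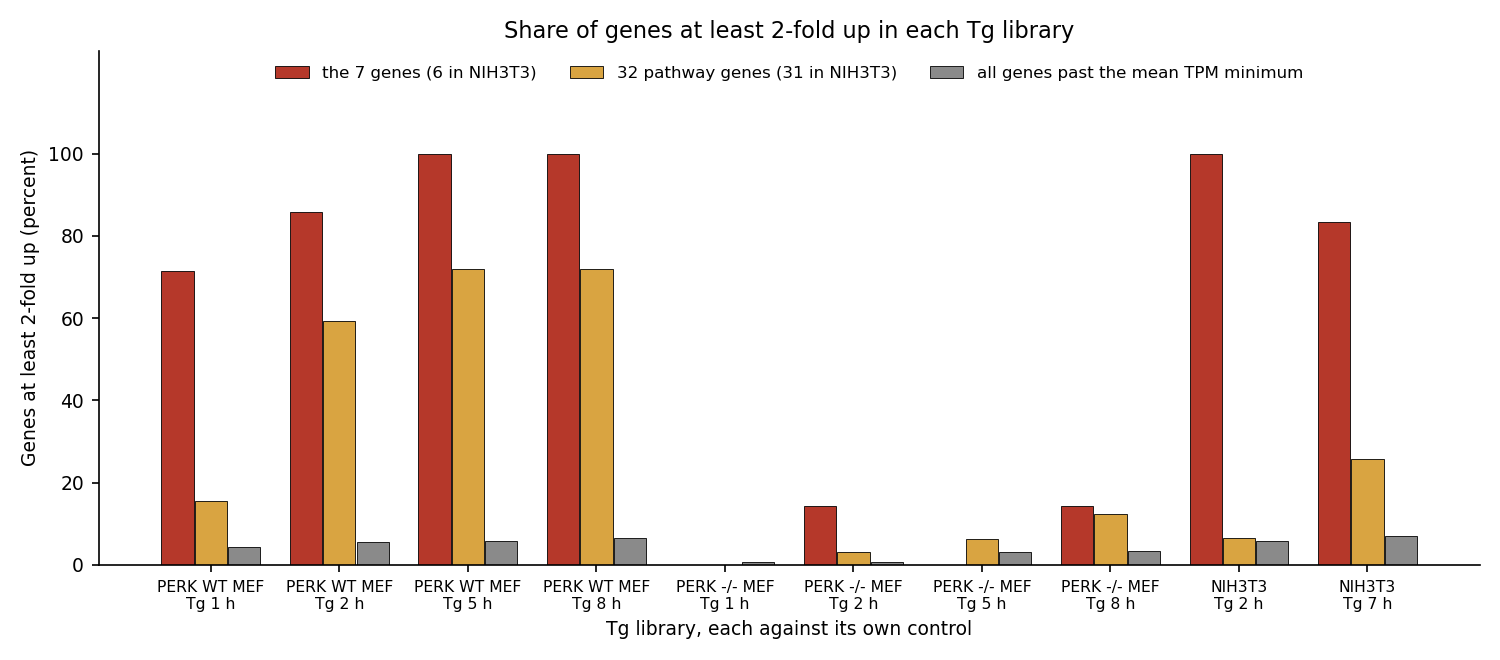
Percent of genes at least 2-fold up in each Tg library against its own control, for the 7 members (6 in NIH3T3 cells), the list of 32 pathway genes (31 in NIH3T3 cells) and all genes past the mean TPM minimum. In PERK WT MEFs the members reached 7 of 7 at 5 h and the pathway list 23 of 32, while in PERK −/− MEFs the members stayed at 0 or 1.

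The genes whose profile was most like that of the members were sought over the 10 MEF libraries, among 5498 genes with a range of at least 2-fold. Likeness was Pearson's r of log2 TPM with the floor, given as a description, since the libraries share the controls, the genotypes and the order of times. Closest to the mean of the 7 genes were Zxdb, Sash1, Rai1, Trpv2, Gli2, Shmt2, Atf5, Trim35, Yars and Arl2, with r from 0.985 to 0.970. Several of these were near the floor in the controls, such as Rai1 at 3.70 TPM in WT and Gli2 at 4.49. Shmt2, of one-carbon metabolism, and Atf5 were on the pathway list.

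NIH3T3 libraries had no part in that choice. Of the 10 genes, Atf5 rose there by 2.82 at 2 h and 2.57 at 7 h on the log2 scale, and Zxdb by 0.24 and 1.02, while Arl2 was at −0.50 and −0.25. Sash1, Shmt2, Trim35 and Yars stayed under 1 in both. Rai1, Trpv2 and Gli2 had at most 0.29 TPM in the 3 libraries, so that a change of these genes could not be seen above the floor. For single members the first matches were Rai1 for Atf4 (r 0.989) and Ddit3 (0.989), Flnc for Ppp1r15a (0.992), Zbtb7b for Trib3 (0.984), Adnp2 for Chac1 (0.987), Ets2 for Nupr1 (0.964) and Adm2 for Vldlr (0.991). Next to Rai1, Atf4 was followed by the histone genes Hist1h3e and Hist1h3c, which are near-identical copies whose footprints may have been split between them. Among the members themselves r ran from 0.597 (Ppp1r15a and Nupr1) to 0.987 (Ddit3 and Ppp1r15a).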

How the data were processed

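Each of the 13 conditions was 1 footprint library. The authors took footprints 22 to 34 nt long, filtered them against rRNA and tRNA with STAR, and mapped them with Bowtie2 to mm10 RefSeq coding sequences that lacked 30 nt at either end (tool versions are not given in the sources used here). RSEM then gave expected counts, whole numbers in the deposited table and not scaled between libraries, and TPM values, which in the deposited table sum to the same total in each library. Depth was 2525029 to 14799515 counts per library. The mean TPM minimum of 2, the floor of 4 TPM and the 2-fold threshold followed the study. The members and lists were chosen with earlier results of these data known. Named genes were the 7 members, Eif2ak3, the pathway genes a count turned on, per role the 2 with the largest and the 1 with the smallest change in WT at 8 h, and the genes most like the members (3 each, 10 for their mean). The alternatives tried were a pseudocount of 1, a floor of 1 TPM, TMM factors (edgeR 4.0.16), size factors (DESeq2 1.42.0), counts per library total, thinning to the smallest library, thresholds of 1.5-fold and 3-fold, a mean TPM minimum of 5 and no minimum. The calls and intervals were tried on simulated counts with counting error only, for genes well above the floor in the WT control. Neither spread between libraries nor values near the floor were tested in this way. Scripts ran in Python 3.11.15 with scipy 1.17.1 and in R 4.3.3. Protein sequences were not analysed here.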

Additional observations from a re-analysis of the deposited data

Results flagged for a closer look

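Nupr1 moved in opposite directions in Tg. It was above control in every Tg library of PERK WT MEFs, by 0.98 to 3.38 on the log2 TPM scale, and in every Tg library of NIH3T3 cells, by 0.91 to 1.61. In PERK −/− MEFs it was below control in every Tg library, with changes of −1.34 to −0.64. The difference was not tested, since each condition was 1 library, and the Tg libraries of a cell line share 1 control library.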

How the results depend on the processing

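Over the alternatives, 140 of 150 counts of members past the threshold stayed within 1.5 times the reported count, and none of the 44 changes of single members that passed 2-fold as reported turned its direction in 264 values under the alternatives. In PERK −/− MEFs at 2 h the count of 1 (Ddit3) became 0 with a pseudocount of 1 TPM, with TMM factors, DESeq2 size factors, counts per library total or thinned counts (these 4 with the same floor, which lies above the control value of Ddit3), and with a 3-fold threshold. Of 100 thinnings with the same floor, drawn after seeing the data, 21 left Ddit3 at least 2-fold up at 2 h and 60 left Chac1 so at 8 h. Of the calls lower than control, Trib3 kept its own in 99, 100 and 73 of them at 1, 2 and 5 h, Nupr1 in 52 and 90 at 1 and 5 h, and Chac1 in 80 at 5 h. A 1.5-fold threshold gave 1 member up (Ddit3) at 5 h and 2 (Ddit3 and Chac1) at 8 h, and a 3-fold threshold gave 0 at 8 h. At 1.5-fold, 1 member (Ddit3) was lower in PERK −/− than in WT controls. Of the 46 changes of single members that moved by more than counting error, most were of Vldlr, which lies near or under the floor. Its change in WT MEFs at 8 h was 1.51 as reported and 3.41 with a floor of 1 TPM. The sign of Ppp1r15a in PERK −/− MEFs at 1 and 2 h changed in 1 thinning to the smallest library, from 0.34 to −0.001 and from −0.24 to 0.13, and was below 0 in 5 and 71 of the 100 thinnings. The median over all genes shifted by over 0.1 in 6 cases, by 0.11 in PERK −/− MEFs at 2 h with either set of factors or no minimum, by 0.13 in NIH3T3 cells at 2 h with DESeq2 size factors or no minimum and by −0.10 with TMM factors between genotypes at 8 h. No paired analysis was possible because the groups share only 1 replicate number, and no replicate could be left out. A fit of genotype with the 5 shared times as blocks, which asks for 1 difference over all times, was not made. Few counts limit Ddit3, Trib3, Chac1 and Vldlr in PERK −/− MEFs, and Nupr1, Trib3 and Vldlr in WT MEFs at 1 h.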
